A study of Mus musculus with 4 samples.

Results

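The RNAs described here are 9 long, mostly noncoding transcripts of the mouse nucleus: Firre, Lncpint, Tug1, Mir22hg, Mir17hg, Ftx, Kantr, Pvt1 and Dleu2. They were chosen by gene symbol from a deposited table of 52189 distinct gene identifiers, and each symbol matched 1 identifier. The level of each RNA was measured by RNA immunoprecipitation and sequencing (RIP-seq) with an antibody to scaffold attachment factor B (SAFB), which binds nucleic acids and is part of the nuclear matrix, and with control IgG as the background. The SAFB RIP and the IgG RIP have 2 libraries each, so there are 4 libraries in all.

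All 4 libraries came from AML12, an immortalised but non-tumour mouse hepatocyte line derived from mice that carry a transforming growth factor alpha transgene. Cells of both groups were grown alike, in DMEM/F12 with serum, an ITS supplement and dexamethasone, and were crosslinked with ultraviolet light. Nuclei were isolated, lysed and sonicated, and the cleared lysate was shared out between control IgG and the antibody to SAFB. Input RNA was not analysed here, so values compare the precipitates with each other and not with the RNA content of the nucleus. Both groups therefore share the cell line, the medium and the crosslinking, and differ in the antibody. The labels do not say whether replicates came from separate cultures, so p-values measure only the spread between these libraries, which may be technical.

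A microRNA host gene is a long transcript whose introns or exons contain microRNA hairpins. The nuclear Microprocessor complex (Drosha with Dgcr8) cuts the hairpin out of the host RNA, Dicer1 trims it in the cytoplasm, and an Argonaute protein then carries the mature strand, whose bases 2 to 8 (the seed) pair with target messengers. Other long RNAs of the set are known for staying at or near the chromatin they are made from.

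Of the 9 genes, 4 hold annotated microRNA hairpins within their span, 12 hairpins in all. Mir22hg holds Mir22. Mir17hg holds the 6 hairpins of the miR-17-92 cluster, a group studied for its role in cell proliferation. Ftx holds Mir421, Mir374b and, on the opposite strand, Mir374c. Dleu2 holds Mir15a and Mir16-1, a pair known from deletions in chronic lymphocytic leukaemia. The mature sequences shown are those of hairpins whose values are given further on and those that share a seed. They are taken from RefSeq for GRCm38.p6 and run 5′ to 3′, with the seed in capitals.
mmu-miR-22-5p: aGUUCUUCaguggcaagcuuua
mmu-miR-22-3p: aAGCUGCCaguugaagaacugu
mmu-miR-17-5p: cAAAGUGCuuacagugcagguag
mmu-miR-20a-5p: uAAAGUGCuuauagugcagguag
mmu-miR-18a-5p: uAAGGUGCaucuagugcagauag
mmu-miR-19a-3p: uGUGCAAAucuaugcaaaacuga
mmu-miR-19b-3p: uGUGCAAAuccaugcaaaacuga
mmu-miR-92a-3p: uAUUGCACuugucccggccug
mmu-miR-15a-5p: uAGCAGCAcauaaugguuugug
mmu-miR-16-5p: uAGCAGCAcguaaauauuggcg
mmu-miR-374b-5p: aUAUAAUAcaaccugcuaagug
mmu-miR-421-5p: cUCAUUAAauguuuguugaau
The 6 hairpins of Mir17hg give 4 seeds in the strands shown, with AAAGUGC shared by miR-17-5p and miR-20a-5p and GUGCAAA by miR-19a-3p and miR-19b-3p. The 2 hairpins of Dleu2 share the seed AGCAGCA. The seeds shown for Mir22hg and Ftx occur once each in the set.

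The values are TPM, transcript shares scaled to 1000000 per library, from which read depth cannot be recovered. Entries above 0 numbered 16031 and 17278 with IgG and 22389 and 21006 with SAFB. Correlations across genes were 0.923 within the IgG group, 0.979 within the SAFB group and 0.830 to 0.862 between groups (Pearson's r of log2(TPM + 1)). Messengers of SAFB and its relatives rose in the SAFB RIP, Safb by 2.49, Safb2 by 2.99 and Sltm by 1.44 on the log2 scale. As a check of the cell line, 11 of 13 hepatocyte markers in the table were tested. Ttr, Krt8 and Krt18 had the highest means of the list, 1759, 1281 and 895 TPM. Alb had 328 TPM on average, Fgb 5.78 and Cps1 0.37, and Apoa2 was listed at 0 in every library. The bile duct keratins Krt7 (538 TPM on average) and Krt19 (401 TPM) were present too, whereas Sox9 had 46.8 TPM, Cftr 1.83 and Epcam 0.114. On the log2 scale Krt19 was at -0.62, Sox9 at -0.55 and Cftr at 1.58, and each passed the test described below, while Krt7 (0.003) did not. Cftr reached 1 TPM only in the SAFB libraries. Among macrophage, endothelial and stellate cell markers, Adgre1, Clec4f, Cdh5, Tie1, Stab2, Pdgfrb and Acta2 were listed at 0 in every library. The summed TPM of the 5 bile duct markers was 910 to 1265 in the IgG libraries and 873 to 904 in the SAFB libraries. The summed macrophage markers, mostly Cd68, ran from 8.62 to 13.5 and from 22.7 to 34.3 TPM. Their part in the results was not tested.

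Of the 9 long RNAs, 3 were higher in the SAFB RIP at an adjusted p below 0.05 (limma on log2(TPM + 1), Benjamini-Hochberg over 16647 genes tested), namely Mir22hg, Ftx and Lncpint. None was lower. The background was high: 29.8% of all genes tested were called higher and 8.3% lower. Among the 2488 annotated long noncoding genes tested, 33.8% were called higher and 2.13% lower. The count of 3 in 9 is thus near the share called among all genes and among all long noncoding genes tested. More abundant long noncoding genes were called more often. With a mean of at least 5 TPM 389 of 1096 were higher, or 274 of 648 without the class TEC, described further on. With a mean of at least 50 TPM 43 of 78 were higher and 7 lower. Firre, Lncpint, Pvt1, Mir22hg and Tug1 exceed that mean, and of these Lncpint and Mir22hg were called. In 6 of the 9 RNAs each SAFB value exceeded each IgG value, against 52.3% of all genes tested and 61.6% of long noncoding genes. The median log2 fold change of the 9 was 0.41, beside 0.46 for all genes tested, 0.34 for protein-coding genes and 0.91 for long noncoding genes. All 9 passed the filter on low values, and in each the value exceeded 1 TPM in all 4 libraries. Because TPM is a share, more of an RNA and less of other RNA in a precipitate cannot be told apart.

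**Figure D1:**
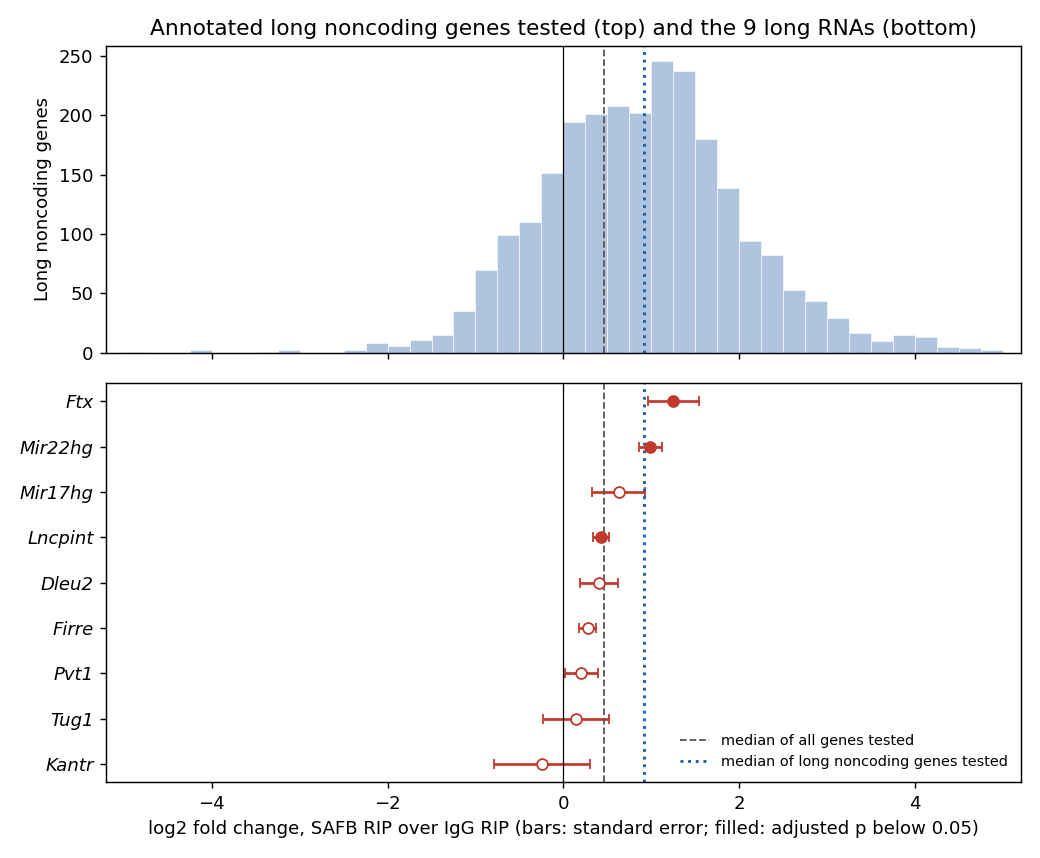
The upper panel counts the 2488 annotated long noncoding genes tested by their log2 fold change (SAFB RIP over IgG RIP, bins of 0.25), and the lower panel gives the 9 long RNAs with standard errors, filled where the adjusted p was below 0.05. Ftx and Mir22hg lie to the right of the long noncoding median of 0.91, and the other 7 lie to its left.

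The median gene tested was 0.46 higher in the SAFB RIP on the log2 scale. With each library centred on the median of the genes tested, 16.4% of all genes were called higher, and of the 9 RNAs only Mir22hg was. On that scale Ftx was at 0.79 and Mir22hg at 0.53, whereas Mir17hg was at 0.17. The other 6 lay below 0: Lncpint at -0.03, Dleu2 at -0.05, Firre at -0.19, Pvt1 at -0.26, Tug1 at -0.31 and Kantr at -0.70. Quantile normalization and centring on the median of long noncoding genes were the 2 other scalings tried, among 12 alternatives in all. In fits that left out 1 library, the log2 fold change ranged from 0.89 to 1.09 for Mir22hg, 1.09 to 1.41 for Ftx and 0.39 to 0.47 for Lncpint. The number of genes called shifted in those fits among all genes as well as among the 9, as given in the closing section.

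The levels of the 9 RNAs spanned 2 orders of magnitude. Firre was first in all 4 libraries, with a mean of 549 TPM, and Lncpint second, with 253 TPM. These levels did not overlap each other or the next. Pvt1 (93.2 TPM), Mir22hg (80.3 TPM), Tug1 (76.8 TPM) and Dleu2 (44.9 TPM) followed, and each overlapped its neighbour in the order. Dleu2 stood above Mir17hg (14.8 TPM) in every library. Mir17hg, Ftx (12.2 TPM) and Kantr (4.82 TPM) again overlapped from one to the next. Among the long noncoding genes tested, the mean level of Firre was at percentile 99.8 and that of Kantr at 54.7.

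**Figure D2:**
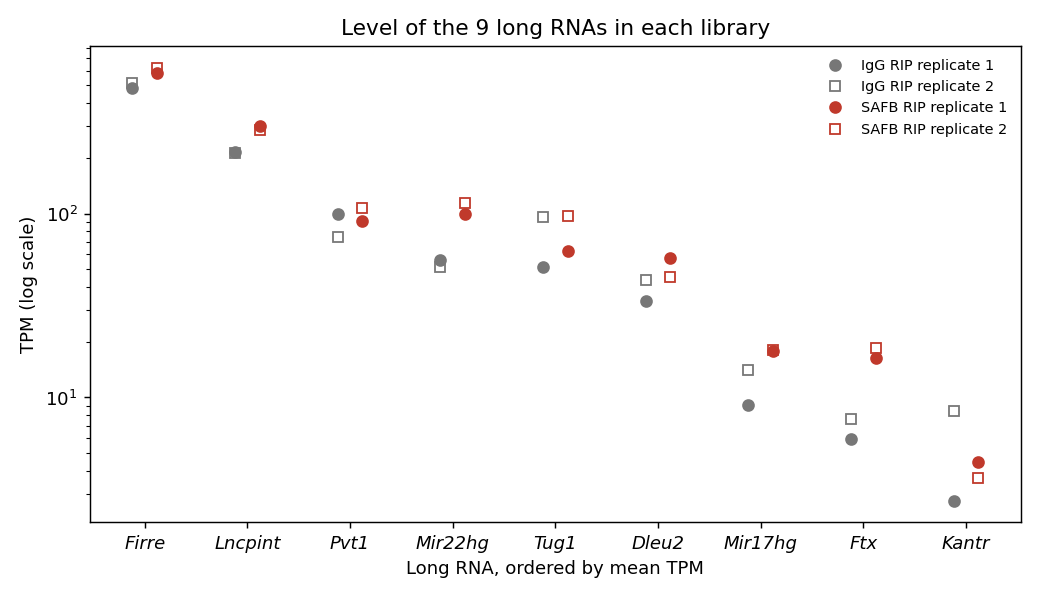
Each point is the TPM of 1 long RNA in 1 library (log axis), ordered by mean level, with the IgG RIP in grey and the SAFB RIP in red. Both red points lie above both grey points for Firre, Lncpint, Mir22hg, Dleu2, Mir17hg and Ftx, and the groups overlap for Pvt1, Tug1 and Kantr.

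Mir22hg (chr11:75461539-75466676, plus strand, mm10 with GENCODE M21), the host of miR-22, had 55.9 and 50.9 TPM in the IgG libraries and 99.7 and 114.5 TPM in the SAFB libraries. The SAFB values were the higher ones and the groups did not overlap. The RNA rose by a log2 fold change of 0.99 ± 0.13 (SE), or 1.98-fold, with an adjusted p of 0.0103. Of the 9 RNAs it alone was called higher in each of the 4 fits that left out a library. With each library centred on the median of long noncoding genes the call ended, at 0.24.

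The hairpin entry Mir22 (chr11:75463716-75463810) lies wholly in an exon of Mir22hg, and its values went the other way. It had 31.7 and 55.2 TPM in the IgG libraries and 19.3 and 26.0 TPM in the SAFB libraries. Both SAFB values lay below both IgG values. The log2 fold change was -0.87 ± 0.33 with an adjusted p of 0.104, so the hairpin did not pass, although it was called lower after median centring (-1.33), after both other scalings, with the replicate number as a block (at -0.87) and without IgG replicate 1 (-1.26). Relative to its host, the hairpin entry stood at -0.34 in the IgG libraries and -2.20 in the SAFB libraries on the log2(TPM + 1) scale, a difference of -1.86. How the authors' counting divided reads between the hairpin and the exon around it is not given in the sources used here, so both values are uncertain.

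Tlcd2, a protein-coding gene that overlaps Mir22hg on the same strand, is the other messenger that could share reads with it. It had 133.1 and 104.4 TPM with IgG and 91.3 and 88.9 TPM with SAFB. Its log2 fold change of -0.38 ± 0.15 did not pass (adjusted p = 0.113), and it was called lower after median centring (-0.84) and without IgG replicate 2 (-0.56).

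Ftx (chrX:103560907-103623790, minus strand), a long RNA of the X-inactivation centre known as an activator of Xist, had the largest difference of the 9. It had 5.97 and 7.68 TPM with IgG and 16.4 and 18.6 TPM with SAFB. The SAFB libraries were the higher ones, without overlap. The log2 fold change was 1.25 ± 0.29, or 2.38-fold, with an adjusted p of 0.0319. It kept its call in 6 of 12 alternatives and lost it under each of the 3 scalings, with the replicate number as a block and without either SAFB library. Xist itself, the RNA that coats the inactive X, stayed at or below 0.439 TPM in every library and was not tested.

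Both hairpins on the strand of Ftx lie in its introns. Mir421 had 4.78 TPM in IgG replicate 1, was listed at 0 in IgG replicate 2, and had 7.82 and 10.4 TPM with SAFB. Its log2 fold change of 2.06 ± 0.91 did not pass (adjusted p = 0.140), but it was called higher without IgG replicate 1 (3.33) and without IgG replicate 2 (0.80). Mir374b had 15.2 TPM in IgG replicate 1, was listed at 0 in IgG replicate 2, and had 6.06 and 1.54 TPM with SAFB. The IgG values of this entry enclosed those of SAFB, and its log2 fold change was 0.07 ± 1.46, which became 2.08 without IgG replicate 1 and -1.93 without IgG replicate 2. Mir374c, on the opposite strand, was above 0 only in SAFB replicate 1, at 0.0649 TPM. Jpx, another RNA of the X-inactivation centre, overlaps one end of Ftx on the opposite strand and had a log2 fold change of -0.16 ± 0.28 (adjusted p = 0.685). Jpx less Ftx, in log2(TPM + 1), was 0.98 and 1.02 in the IgG libraries and -0.20 and -0.60 in the SAFB libraries.

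Mir17hg (chr14:115042879-115046727, plus strand) had 9.10 and 14.1 TPM with IgG and 17.9 and 18.2 TPM with SAFB. Both SAFB values lay above both IgG values, and the IgG libraries differed more from each other than the SAFB libraries did. The log2 fold change of 0.63 ± 0.30 did not pass (adjusted p = 0.170). Without IgG replicate 2 it was called higher, at 0.92.

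All 6 hairpins of the cluster lie in exons of Mir17hg, and 3 were tested. Mir18 had 13.8 and 25.8 TPM with IgG and 17.6 and 35.0 TPM with SAFB, so the groups overlapped. Mir19a reached 16.9 TPM in SAFB replicate 1 and lay between 0.718 and 1.299 TPM in the other 3 libraries. Mir20a had 29.2 and 15.3 TPM in the libraries numbered 2 and 0.261 and 0.271 TPM in those numbered 1. The log2 fold changes of these entries were 0.38 ± 0.47, 1.45 ± 1.17 and -0.44 ± 1.98, and none passed. Without SAFB replicate 2, Mir19a was called higher, at 3.14. Mir17 and Mir92-1 stayed below 1 TPM in all 4 libraries, and Mir19b-1 exceeded 1 TPM in IgG replicate 2 alone (11.7 TPM). For Mir20a in both groups, and for Mir19a in the SAFB group, the 2 libraries of a group were thus far apart, although the hairpins lie side by side in 1 host transcript.

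Dleu2 (chr14:61602839-61682373, minus strand) had 33.3 and 43.8 TPM with IgG and 57.3 and 45.3 TPM with SAFB. The groups did not overlap, but the lower SAFB value was close to the higher IgG value. The log2 fold change of 0.41 ± 0.21 did not pass (adjusted p = 0.199), while without IgG replicate 2 it was called, at 0.60. Mir15a, in an intron of Dleu2, had 3.75 and 1.28 TPM with IgG and 5.42 and 20.2 TPM with SAFB. SAFB replicate 2 stood apart, and the log2 fold change of 1.83 ± 0.74 did not pass (adjusted p = 0.118), but it was called higher without IgG replicate 1 (2.36) and without SAFB replicate 1 (2.69). Mir16-1, which spans an exon boundary, stayed below 1 TPM in all 4 libraries.

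Over all 4 hosts, 11 hairpins lay on the host's strand, 7 were tested and 0 passed in limma, beside 29.8% of all genes called higher and 8.3% lower. With only 7 tested, and with Mir22, Mir421, Mir374b, Mir19a and Mir15a called in some alternatives, the count of 0 is no result about hairpins. Their summed TPM was 70.9 and 125.6 with IgG and 75.04 and 110.6 with SAFB. The sums overlapped between groups, and in each group the library numbered 2 had the higher one. At an unadjusted p below 0.05 the count was also 0. The hairpin entries are short, and TPM divides by length, so a few reads can give a large value.

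**Figure D3:**
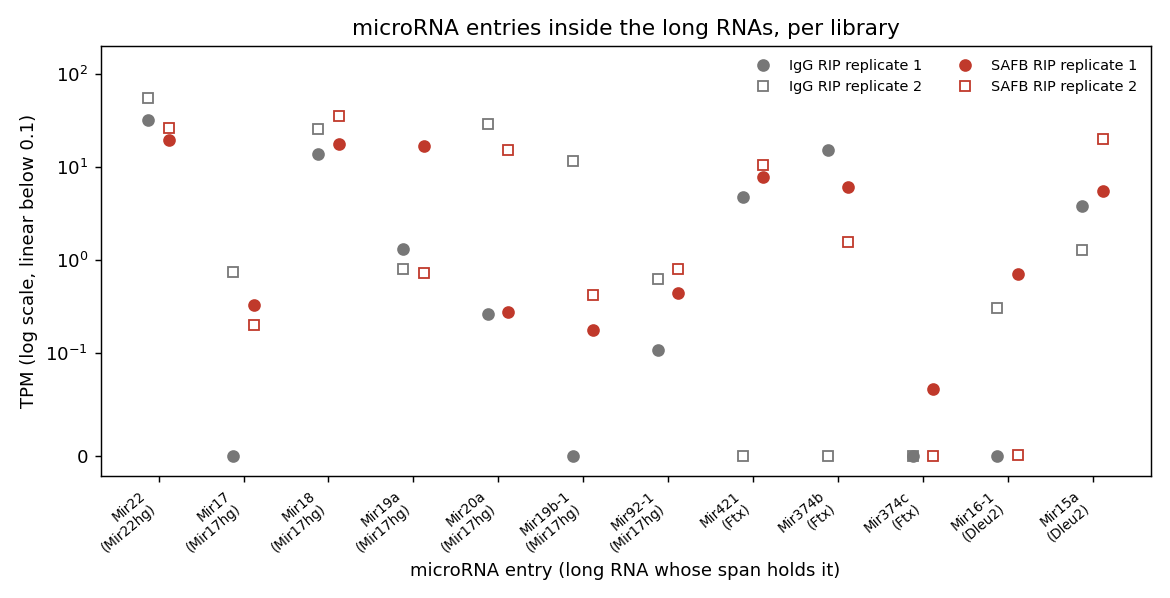
Each point is the TPM of 1 microRNA entry in 1 library, on an axis that is logarithmic above 0.1 and linear below it, with the host in brackets. Mir22 is the entry with both SAFB points (19.3 and 26.0) below both IgG points (31.7 and 55.2), and Mir421 and Mir15a have both SAFB points above.

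Firre (chrX:50555744-50635321, minus strand) is an X-linked RNA whose repeats bind Hnrnpu and which is known for holding chromosomal regions together in the nucleus. It had 479 and 514 TPM with IgG and 579 and 623 TPM with SAFB. The SAFB libraries were the higher ones, without overlap. The difference was small, 0.27 ± 0.10 on the log2 scale or 1.21-fold, and did not pass (adjusted p = 0.0955). After centring on the median of long noncoding genes it was called lower, at -0.47. Its log2 fold change was at percentile 29.3 among long noncoding genes tested, whereas its level was near the top.

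Lncpint (chr6:31082565-31220488, minus strand), a p53-induced RNA known to associate with Polycomb repressive complex 2, had 216 and 215 TPM with IgG and 299 and 283 TPM with SAFB. The IgG libraries were nearly equal and both SAFB libraries were higher. It rose by 0.43 ± 0.09 on the log2 scale, or 1.35-fold (adjusted p = 0.0255). It kept this call in 6 of 12 alternatives. The call was lost after median centring, where the value was -0.03, under both other scalings, without a variance trend and without either SAFB library.

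Pvt1 (chr15:62037986-62378096, plus strand), the long neighbour of Myc, had 99.5 and 74.2 TPM with IgG and 91.3 and 107.7 TPM with SAFB. The groups overlapped and the log2 fold change was 0.20 ± 0.19 (adjusted p = 0.435). Without IgG replicate 1 it was called higher, at 0.41.

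Tug1 (chr11:3639785-3649673, minus strand), a widely expressed RNA that is found both at chromatin and in the cytoplasm, had 51.4 and 96.1 TPM with IgG and 62.9 and 96.7 TPM with SAFB. Within each group the library numbered 2 was the higher one, and the groups overlapped. The log2 fold change was 0.15 ± 0.38 (adjusted p = 0.782). Gm27517, an entry that lies wholly in an exon of Tug1, had 89.7 TPM in IgG replicate 2 and between 0.772 and 2.19 TPM in the other 3 libraries. It was singled out after its values were seen.

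Kantr (chrX:152294828-152327495, minus strand), a transcript next to Kdm5c that is annotated as protein-coding in GENCODE M21, had 2.75 and 8.46 TPM with IgG and 4.45 and 3.64 TPM with SAFB. IgG replicate 2 was the highest library and IgG replicate 1 the lowest. The log2 fold change was -0.24 ± 0.55 (adjusted p = 0.753), and without IgG replicate 1 Kantr was called lower, at -0.91.

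Wholly inside the spans of the 9 genes the table lists further entries. On the host's strand there were 26, counting the hairpins, each above 0 in at least 1 library, and 18 were tested, of which 2 were higher and 0 lower, a smaller share than the 29.8% called higher among all genes, which was not tested. On the opposite strand there were 15, of which 8 were listed at 0 in every library and 0 were tested. The summed TPM of these opposite-strand entries was at most 3.95 in any library, against 180 to 335 for those on the host's strand. Entries that overlap an end of a span are left out of these sums. With them the sums were 135 to 311 on the opposite strand and 313 to 439 on the host's strand.

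Among the entries on the host's strand were 5 unspliced ones of the class TEC, the annotation's term for models that still await an experiment, and they were singled out after their values were seen. In 4 of the 5, those in introns of Lncpint and Dleu2, both SAFB values lay above both IgG values, and 2 of the 5 passed. Such separation was seen in 52.3% of all genes tested and 61.6% of long noncoding genes, and 29.8% and 33.8% were called higher. With so few entries, picked by their values, these counts are a description. The fifth, Gm38020 in Ftx, which lies in part in an exon, had 2.88 and 4.49 TPM with IgG and 3.39 and 3.35 TPM with SAFB, and its groups overlapped (-0.08 ± 0.35). Gm37472, in an intron of Dleu2 (chr14:61677443-61681494), had 10.6 and 13.1 TPM with IgG and 37.8 and 43.0 TPM with SAFB. It rose by 1.70 ± 0.22 on the log2 scale (adjusted p = 0.00959), beside 0.41 for Dleu2. Gm37472 less Dleu2, in log2(TPM + 1), was -1.62 in the IgG libraries and -0.33 in the SAFB libraries. The second, 5330406M23Rik in an intron of Lncpint, had 35.8 and 34.4 TPM with IgG and 56.3 and 50.3 TPM with SAFB, a rise of 0.59 ± 0.14 (adjusted p = 0.0363). Gm37472 kept its call in 12 of 12 alternatives, whereas 5330406M23Rik did in 5 of 12. The latter was at 0.13 after median centring, and lost its call also under both other scalings, without a variance trend, with the replicate number as a block and without either SAFB library. Gm37728, also in Lncpint, was at 0.93 ± 0.41 (1.44 and called without IgG replicate 2) and Gm37420, also in Dleu2, at 0.32 ± 0.26, and these did not pass.

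Neighbouring protein-coding genes did not share 1 direction. Of 22 genes next to or overlapping the 9 RNAs, 12 were tested, 3 were higher and 0 lower (29.8% and 8.3% of all genes), with a median log2 fold change of 0.11 beside 0.46 for all genes. After median centring 2 were higher and 3, Tlcd2, Kdm5c and Myc, were lower, beside 2736 higher and 2935 lower of all 16647 genes. Morc2a, whose start overlaps Tug1 on the opposite strand, had 96.3 and 97.9 TPM with IgG and 213 and 201 TPM with SAFB. It rose by 1.08 ± 0.10 (adjusted p = 0.00575) while Tug1 overlapped between the groups. Trim13, which overlaps the end of Dleu2 on the opposite strand, was listed at 0 and at 0.945 TPM with IgG and had 7.83 and 4.85 TPM with SAFB, a rise of 2.37 ± 0.48 (adjusted p = 0.0231). This value depends on the pseudocount: with 0.1 in place of 1 it was 4.28 and was not called. Trim13 reached 1 TPM only in the SAFB libraries, so it entered the test only because it was high there. Its place among the 3 called higher is thus a description. Tspyl2, on the far side of Kantr from Kdm5c, rose by 1.08 ± 0.20 (adjusted p = 0.0185), a call that was kept in 7 of 12 alternatives and lost under each of the 3 scalings and without either SAFB library. Myc, beside Pvt1, was at -0.25 ± 0.16 (adjusted p = 0.270) and Kdm5c at -0.47 ± 0.21 (adjusted p = 0.137), though Kdm5c was called lower without IgG replicate 2 (-0.74). A noncoding partner of Lncpint, 2210408F21Rik, overlaps its start on the opposite strand and was singled out after its values were seen. It had 26.6 and 19.7 TPM with IgG and 71.8 and 76.1 TPM with SAFB, a rise of 1.65 ± 0.20 (adjusted p = 0.00816). Whether the authors' counting used strand is not given in the sources used here, so values of genes that overlap on opposite strands are uncertain.

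**Figure D4:**
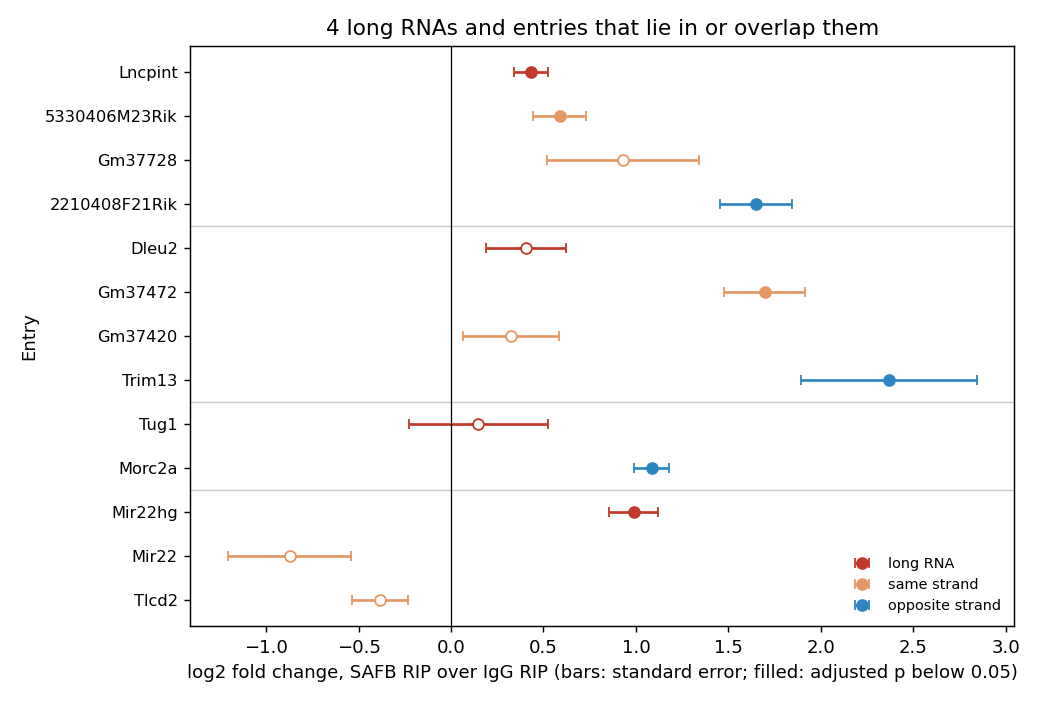
Log2 fold changes (SAFB RIP over IgG RIP) with standard errors are shown for Lncpint, Dleu2, Tug1 and Mir22hg (red), for entries on the same strand (orange) and for overlapping genes on the opposite strand (blue), filled where the adjusted p was below 0.05. Gm37472 (1.70), 2210408F21Rik (1.65), Trim13 (2.37) and Morc2a (1.08) lie to the right of the long RNA they overlap, and Mir22 (-0.87) lies to the left of Mir22hg (0.99).

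SAFB has RNA recognition motifs and is known to bind purine-rich RNA, so the longest annotated transcript of each gene was searched for GAAGA on the transcribed strand, with overlapping matches counted, and for its reverse complement TCTTC. The former occurred at 4.77 matches per kb in Lncpint, 4.68 in Firre and 3.92 in Pvt1, which lay at percentiles 94.5, 94.2 and 90.8 among the long noncoding genes tested. Mir22hg had 2.85, Ftx 2.34, Mir17hg 2.26, Dleu2 2.20, Tug1 2.08 and Kantr 1.19 per kb, and the median long noncoding gene 1.72. The 3 RNAs with the densest motif were thus not those with the largest fold changes, which were Ftx and Mir22hg. TCTTC was denser than GAAGA in Ftx (4.21 per kb) and Kantr (3.09 per kb), and sparser in the rest.

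Across the 2488 long noncoding genes the median log2 fold change was 0.65 with no match, 0.31 above 0 and up to 1 match per kb, and 1.47 above 4 per kb. The share called higher in those classes was 28.3%, 14.6% and 53.6%. Firre and Lncpint, both above 4 per kb, had 0.27 and 0.43. Spearman's rho between density and log2 fold change was 0.28 for GAAGA and -0.09 for TCTTC. Other transcript features also went with the fold change, with rho at 0.21 for the number of exons, 0.16 for GC content and -0.14 for length. These are descriptions across genes that share the same 4 libraries, and genes are not independent replicates. A match is a run of letters and not a binding site.

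**Figure D5:**
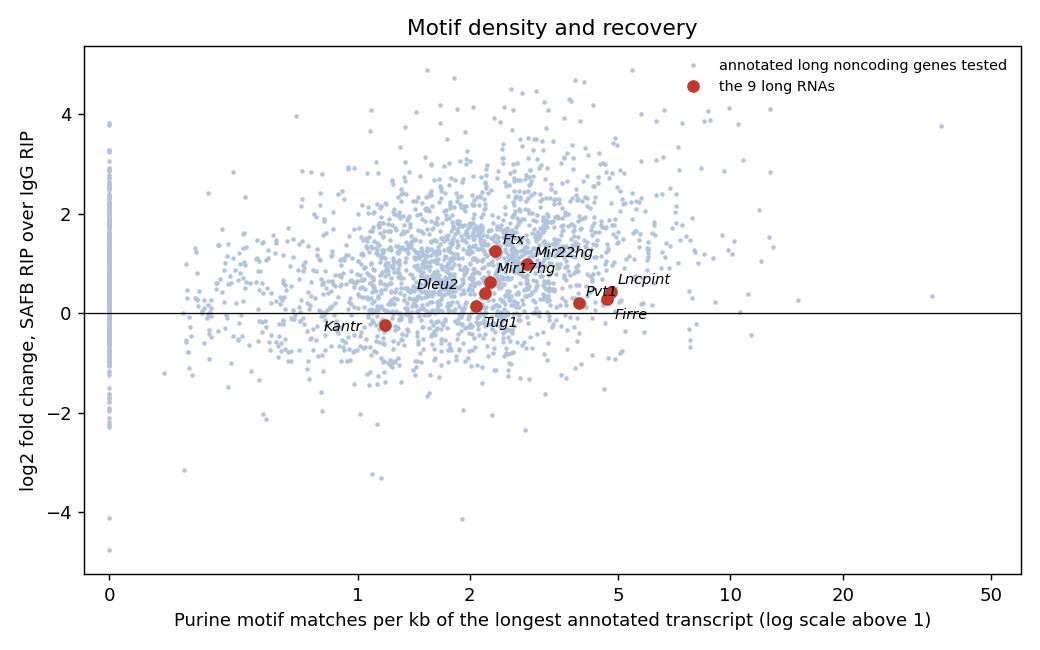
Each point is 1 annotated long noncoding gene tested (blue) or 1 of the 9 long RNAs (red), by purine motif matches per kb of the longest annotated transcript (log scale above 1) and log2 fold change, SAFB RIP over IgG RIP. Lncpint (4.77 per kb), Firre (4.68) and Pvt1 (3.92) lie to the right of the other 6 red points and below Ftx and Mir22hg.

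For each transcript the window of 120 bases with the most GAAGA matches was picked, and these are shown for Firre, which had the most of the 9, and for Ftx and Mir22hg, which had the largest fold changes. They are exonic, read 5′ to 3′ on the transcribed strand of GRCm38, with GAAGA in capitals, at chrX:50573232-50573351 (minus) for Firre, chrX:103561234-103561353 (minus) for Ftx and chr11:75463705-75463824 (plus) for Mir22hg.
Firre: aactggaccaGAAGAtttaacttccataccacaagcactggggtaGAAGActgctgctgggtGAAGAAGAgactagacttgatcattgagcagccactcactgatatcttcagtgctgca
Ftx: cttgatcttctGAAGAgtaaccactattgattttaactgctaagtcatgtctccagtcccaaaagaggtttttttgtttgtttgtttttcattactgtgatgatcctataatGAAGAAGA
Mir22hg: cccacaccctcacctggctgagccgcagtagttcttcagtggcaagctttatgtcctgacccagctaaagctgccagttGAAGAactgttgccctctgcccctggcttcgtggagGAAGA
Of 40487 windows of 120 bases over the transcripts of the long noncoding genes tested, 18.4% held at least 1 match. Those were not picked as the richest of a transcript, so this share is no reference for the windows shown. The Firre window has 4 matches, the Ftx window 3 and the Mir22hg window 2. The windows were picked for these counts, which are therefore a description. The window of Mir22hg contains the whole Mir22 hairpin, and its first match falls in the letters of miR-22-3p printed earlier.

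The genes that make and carry microRNAs were mixed. Of 22 listed, 20 were tested, 9 were higher, 1 was lower and 10 did not pass (29.8% of all genes were higher and 8.3% lower). The median log2 fold change was 0.67 beside 0.46 for all genes. After median centring 5 were higher and 4 lower, beside 2736 higher and 2935 lower of all 16647 genes. Tnrc6a, a scaffold of the silencing complex, rose from 166 and 161 TPM to 1063 and 1037 TPM, by 2.68 ± 0.09. The RNA helicases Ddx5 and Ddx17, cofactors of the Microprocessor, rose by 1.21 ± 0.12 and 0.66 ± 0.10, and Ddx17 was at 0.20 and no longer called after median centring. Snd1, a nuclease linked to the silencing complex, was at -0.28 ± 0.11 and did not pass. However, Snd1 was called lower after median centring (-0.74), quantile normalization (-0.56) and centring on long noncoding genes (-1.02). The following were singled out after their values were seen. Dicer1 rose by 1.22 ± 0.24 and Dgcr8 by 0.93 ± 0.13, and Drosha, at 0.45 ± 0.29, did not pass. After median centring neither Dicer1 (0.76) nor Dgcr8 (0.47) was called, and Dgcr8 lost its call also without either SAFB library. Drosha was called higher without IgG replicate 2 (0.84). Tarbp2, a partner of Dicer1, was the 1 that fell, with a log2 fold change of -0.66 ± 0.15, a call that was lost without a variance trend and without either SAFB library. These are messenger levels in the precipitates and not protein levels.

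Genes for proteins known to work with the long RNAs or their neighbours, 10 in number, had 6 higher, 0 lower and a median log2 fold change of 1.33, beside 29.8% and 8.3% called and a median of 0.46 among all genes. After median centring 6 were higher and 2 lower, beside 16.4% of all genes called higher and 2935 of 16647 called lower. Whether this share differs from that of other genes was not tested. Hnrnpu, which binds Firre, rose by 1.23 ± 0.21, and the cohesin genes Smc1a and Rad21 by 1.69 ± 0.13 and 1.73 ± 0.24. Ezh2, the methyltransferase of Polycomb repressive complex 2, rose by 1.27 ± 0.17. Suz12 (1.39 ± 0.41), Eed (0.36 ± 0.22, groups overlapping), Kdm5c (-0.47) and Myc (-0.25), also in this list, did not pass. Suz12 and Eed were singled out after their values were seen.

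Other nuclear long noncoding RNAs spanned a wider range than the 9. Of 11 tested, 3 were higher and 1 lower, with a median log2 fold change of -0.04, and 2 were higher and 3 lower after median centring. The list takes in the small nucleolar RNA hosts Gas5, Snhg1, Snhg3 (-0.55) and Snhg12 (-0.34), all below 0. Its median therefore depends on their inclusion. Of the rest tested, Neat1 and Jpx (-0.16) were below 0, while Malat1, Airn, Kcnq1ot1, Crnde and Peg13 (0.48) were above it. Snhg3, Snhg12 and Peg13 were singled out after their values were seen. Among the 2488 long noncoding genes tested 2.13% were called lower, and after median centring 466 were higher and 127 lower. The 3 of 11 is near the 33.8% called higher among long noncoding genes, whose median was 0.91. Airn, which silences the imprinted Igf2r locus, rose from 114 and 115 TPM to 827 and 872 TPM, by 2.88 ± 0.09, and Kcnq1ot1, another imprinted silencer, rose by 1.57 ± 0.19. Crnde passed at 1.39 ± 0.36 but kept its call in only 4 of 12 alternatives. The call ended with a pseudocount of 0.1, with no filter, under each of the 3 scalings (0.93 after median centring), with the replicate number as a block and without either SAFB library. Snhg1, a host of small nucleolar RNAs, fell, with -0.80 ± 0.20, and kept its call in 9 of 12 alternatives, losing it with no filter, without a variance trend and without SAFB replicate 1 (-0.61). Malat1, at 19060 and 25420 TPM with IgG and 50820 and 45760 TPM with SAFB, did not pass (1.13 ± 0.37, adjusted p = 0.0740). This depends on the settings, since Malat1 was called higher in 6 of 12 alternatives: with a mean of at least 5 TPM, after quantile normalization (2.85), without a variance trend, and without IgG replicate 2 (1.34), SAFB replicate 1 (1.06) or SAFB replicate 2 (1.21). Neat1 (-0.31 ± 0.09) and Gas5 (-0.04 ± 0.15) did not pass either, although Neat1 was called lower under each of the 3 scalings (-0.77 after median centring) and without IgG replicate 1. Of 8 other microRNA host genes named in the same form, 5 were listed at 0 throughout and 3 were tested, of which 1 was higher, and 0 after median centring. Mir99ahg, host of miR-99a, had 25.2 and 16.6 TPM with IgG and 51.1 and 47.9 TPM with SAFB and rose by 1.23 ± 0.25. Its call was lost after median centring (0.77), after centring on long noncoding genes (0.49) and without SAFB replicate 1 (1.19). Mir155hg (-0.56 ± 0.27) and Mir670hg (0.03 ± 0.66) had means near 1 TPM and did not pass.

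For each of the 9 RNAs the named long noncoding gene with the most similar levels over the 4 libraries was sought among 497 candidates, by the Euclidean distance between log2(TPM + 1) values. Mir17hg lay nearest to H3f3aos (distance 0.160) and Lncpint to Cct6a (0.2496), which has a noncoding biotype in this annotation. Firre lay nearest to Neat1 at 0.688, although Neat1 had the lower values in the SAFB libraries and Firre the higher ones. Mir22hg was closest to Snhg6 (0.512), Pvt1 to Snhg5 (0.542) and Tug1 to Snhg15 (0.795). The distance takes in the level as well as the difference between groups.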

How the data were processed

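RIP-seq of AML12 nuclei was analysed in 2 IgG and 2 SAFB libraries. The deposited values, in a single table, are TPM as made by the authors. Per the submitters' processing notes, HISAT2, HTSeq, DESeq2, StringTie and mm10 were used; their versions, their roles, strand use and the annotation release are not given in the sources used. The libraries were prepared with a strand-specific kit after ribosomal RNA depletion, per the labels' protocols. TPM is a share of each library, so abundant RNAs lower the values of others, and depth is unknown.

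Entries sharing an identifier (14) were summed. Of 52189 identifiers, 52042 matched GENCODE M21. The 16647 genes that reached 1 TPM in 2 or more of the 4 libraries were tested on log2(TPM + 1), which understates changes of low genes, with limma 3.58.1 (R 4.3.3) and a variance trend; the threshold on the Benjamini-Hochberg adjusted p was 0.05. The fit had 2 residual and 2.5 prior degrees of freedom. An exact permutation test of 2 against 2 cannot go below a two-sided p of 0.333 and was not used. Python 3.11.15 and pandas 2.3.3 served for the summaries.

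The members and gene lists were chosen with earlier results of these data known. Named genes are the 9 members, the SAFB family, hairpins within members, neighbouring protein-coding genes, up to 4 genes per list by mean TPM, genes that passed where they are 5 or fewer, and the nearest gene by level. Others are said to be singled out. On simulated data of 16647 genes with 4000 changed, the fit found 36.2% of 2-fold and 77.4% of 4-fold changes, with 3.93% of its calls false; with 200 changed, 0% of either were recovered. Alternatives covered the pseudocount, filter, scaling, variance trend, replicate number and leaving out each library.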

Additional observations from a re-analysis of the deposited data

How the results depend on the processing

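Requiring a mean of at least 5 TPM left Kantr out, so 8 of the 9 RNAs were tested. With that filter, no filter or a pseudocount of 0.1, the number of these RNAs called higher stayed at 3 and lower at 0. Without a variance trend it was 2 higher (Lncpint was lost) and 0 lower, with 4371 genes higher and 946 lower overall. It was 1 higher after median centring, 1 after quantile normalization, and 0 higher with 1 lower (Firre) after centring on long noncoding genes. Leaving out 1 library gave 1 to 5 higher and 0 to 1 lower. In those fits 1 group has a single library, which is assumed to vary like the other group. Over all genes the counts were 4964 higher and 1382 lower as reported, 2736 and 2935 with median centring, 2758 and 2986 with quantile normalization, and 1844 and 4256 with long noncoding centring; leaving out 1 library gave 2034 to 7781 higher and 571 to 2631 lower. The scaling alternatives change what counts as no difference, by construction; the cause of the other changes was not tested.

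Several log2 fold changes turned sign. Median centring gave Firre -0.19, Lncpint -0.029, Tug1 -0.31, Pvt1 -0.26, Dleu2 -0.054, Mir18 -0.082, Mir374b -0.39, Gm37420 -0.14 and Drosha -0.011. Quantile normalization gave Tug1 -0.17, Pvt1 -0.11, Mir18 -0.055, Mir374b -0.85 and Gm37420 -0.18. Long noncoding centring gave Firre -0.47, Lncpint -0.31, Tug1 -0.60, Mir17hg -0.12, Pvt1 -0.54, Dleu2 -0.34, Mir18 -0.37, Mir374b -0.67, Gm37420 -0.42, 5330406M23Rik -0.16, Ddx17 -0.087 and Drosha -0.30. Leaving out 1 library gave ranges of -0.30 to 0.59 for Tug1, -0.91 to 0.42 for Kantr, -0.0040 to 0.41 for Pvt1, -0.10 to 0.85 for Mir18, -2.73 to 1.40 for Mir20a, -1.93 to 2.08 for Mir374b and -0.18 to 0.095 for Gas5.

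Equal replicate numbers are not said to mark a shared lysate, and their deviations did not go together (r = -0.025). With the number as a replicate block, 2 of the 9 were higher (Ftx was lost; its adjusted p was 0.0558, within 0.00217 to 0.283 over its alternatives), Mir22 and Gm27517 were called lower, 5330406M23Rik and Crnde were no longer called, and 4797 genes were higher and 1264 lower. Over 51 named genes and all alternatives, 473 values kept direction and call, 50 lost the call, 43 gained it and 37 turned sign. TPM keeps no depth, so counting error could not be assessed.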
